A study of Homo sapiens with 24 samples.

Results

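The genes described here are 10 markers of liver progenitor cells and of the fetal gene program that hepatocellular carcinoma (HCC) can re-express, namely *AFP*, *GPC3*, *EPCAM*, *PROM1*, *SOX9*, *SOX4*, *DLK1*, *IGF2*, *IGF2BP1* and *IGF2BP3*. They were chosen by name, and their 13 probes are those of the 58201 probes on the array whose RefSeq accession belongs to one of these genes. *GPC3*, *DLK1* and *IGF2* had 2 probes each and the others 1. The array profiles came from PLC/PRF/5 and SNU-449, established lines derived from human HCC, each grown as 3 independent cultures in 4 conditions. These were untreated control, TGFβ1 at 1 ng/mL (TGFβ below), galunisertib at 10 µM, and TGFβ + galunisertib, all for 16 h, and all cultures, controls included, had been deprived of serum overnight before. Galunisertib (LY2157299) inhibits the kinase of the type I TGFβ receptor. Each line stands for 1 tumour, so a difference between the lines is a difference between these cultures and not between kinds of HCC.

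In the fetal liver, hepatoblasts make AFP, the main serum protein of the fetus, and carry surface proteins such as DLK1 and EPCAM. These genes fall in the adult hepatocyte and can return in progenitor cells and in HCC, where AFP and the heparan sulfate proteoglycan GPC3 are used as tumour markers. EPCAM and PROM1 (the CD133 antigen) are used to isolate cells with stem cell properties, SOX9 marks bile duct and progenitor cells, and SOX4 is a related transcription factor that TGFβ induces in several epithelial cells. IGF2 is an imprinted fetal growth factor, and IGF2BP1 and IGF2BP3 are RNA-binding proteins that bind its mRNA among many others.

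The upstream sequences of *SOX4* and *IGF2BP3* are shown because both genes rose with TGFβ in SNU-449. Each run is the 250 bases before the transcription start, 5′ to 3′ on the strand of the gene, from RefSeq promoters of GRCh38.p14. Of the 10 genes, 4 had an entry there. The regions are chr6:21593501-21593750 on the plus strand for *SOX4* and chr7:23470492-23470741 on the minus strand for *IGF2BP3*. Capitals mark AGAC, the core of the SMAD binding element, searched on both strands.
SOX4: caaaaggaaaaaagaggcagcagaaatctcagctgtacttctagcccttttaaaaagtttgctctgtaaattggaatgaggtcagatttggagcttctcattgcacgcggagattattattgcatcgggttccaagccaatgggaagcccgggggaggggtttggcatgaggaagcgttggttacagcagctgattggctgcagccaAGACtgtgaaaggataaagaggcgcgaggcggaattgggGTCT
IGF2BP3: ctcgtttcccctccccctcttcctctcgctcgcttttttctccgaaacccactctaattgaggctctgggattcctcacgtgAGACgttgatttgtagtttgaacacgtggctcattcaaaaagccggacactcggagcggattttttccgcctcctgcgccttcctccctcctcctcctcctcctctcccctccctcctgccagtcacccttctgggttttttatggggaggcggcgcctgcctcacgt
*SOX4* had 2 matches to AGAC, starting 43 and 4 bases before the start, and *IGF2BP3* had 1, starting 168 bases before it. AGAC was present in 77.5% of the 35116 promoters of the table in the same window and at least 2 times in 45.6%. These matches describe the letters only, and no binding was measured.

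Levels are given as log2 of the processed signal over the 75th percentile of the array, so that 0 is that percentile and 1 unit is a 2-fold difference. The scale ends at -4.13, the floor, which is 5.70% of the 75th percentile taken as the median, over the arrays, of the dimmest signal that counts as well above background. The 75th percentile was 145 to 262 intensity units, and an array had 41.6% to 49.6% of its probes well above background. Levels of different genes were not compared, since each probe has its own brightness. A gene passed when its Benjamini-Hochberg adjusted p in limma was below 0.05 over all genes tested. In bulk RNA, fewer cells with a transcript and less transcript per cell cannot be told apart. Each group lay at the same position of all 3 slides, so position and treatment cannot be told apart either. The labels were compared with the treatment by the TGFβ target genes *PMEPA1*, *SKIL* and *SMAD7*. All 3 rose with TGFβ in PLC/PRF/5, by at least 6.02-fold for *PMEPA1*, and 2 of 3 rose in SNU-449, where *SKIL* had an adjusted p of 0.083 (limma). All 3 fell in both lines when galunisertib was added to TGFβ. With galunisertib as the baseline, TGFβ still raised all 3 in SNU-449 (median log2 difference 2.08). In PLC/PRF/5, 0 of 3 passed in that comparison (median 0.20). Galunisertib alone lowered all 3 in SNU-449 and 2 of 3 in PLC/PRF/5. Hepatocyte markers were well above background on all control arrays for 6 of 6 genes in PLC/PRF/5 and for 3 of 6 in SNU-449, while of the bile duct keratins *KRT7* was above it on all 12 arrays of each line, with control means of 3.13 in PLC/PRF/5 and 8.24 in SNU-449, and *KRT19* on 1 of 3 PLC/PRF/5 control arrays and on no SNU-449 array. Markers of endothelial cells and leukocytes stayed at control means of -2.27 or lower in both lines, 3 genes each. On all control arrays, 2 of 3 endothelial genes were still well above background in each line. So were 2 of 3 leukocyte genes in PLC/PRF/5 and 1 of 3 in SNU-449. The hepatocyte markers of SNU-449 were in the same range, with control means of -2.67 or lower.

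**Figure D1:**
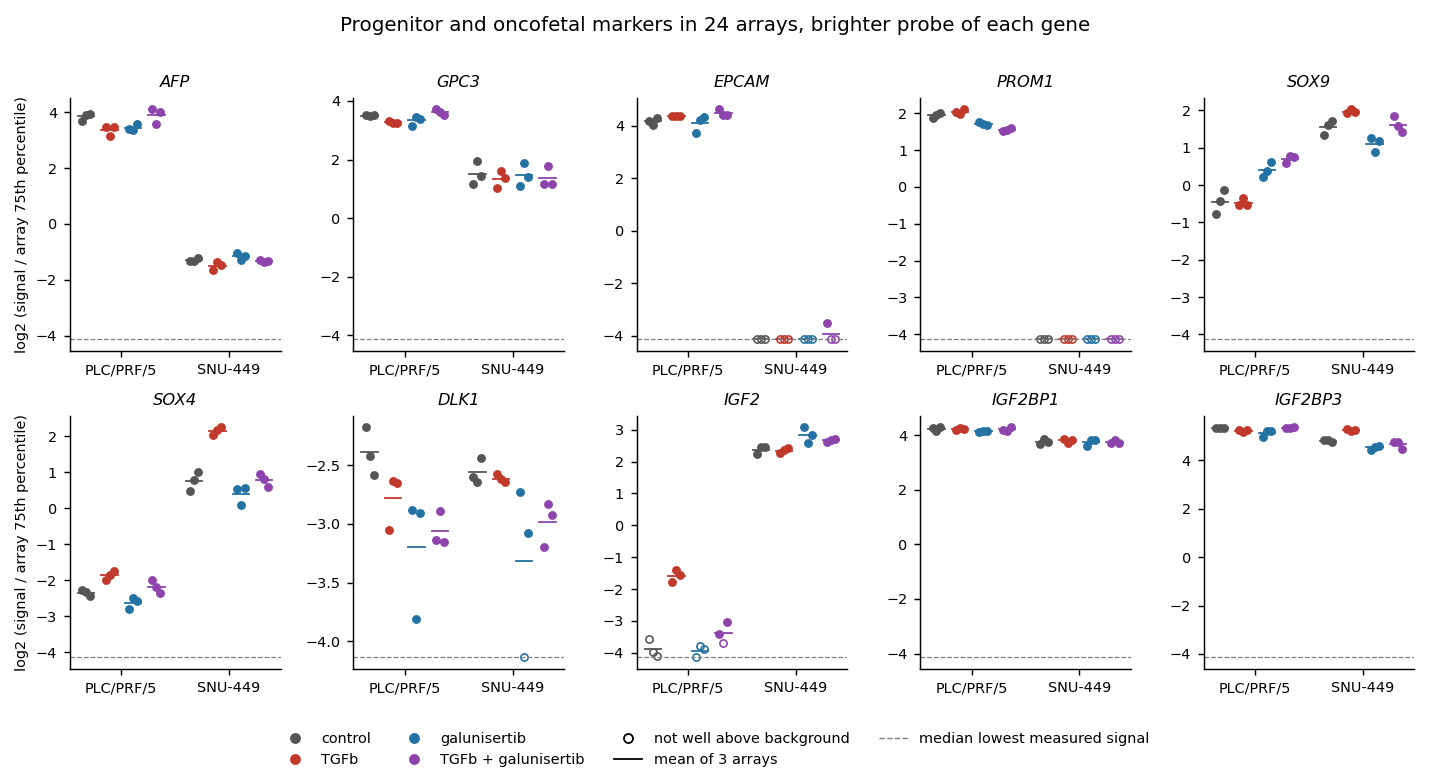
Log2 level (processed signal over the 75th percentile of the array) of the brighter probe of each of the 10 markers on 24 arrays, by line and treatment; filled points were well above background, open points were not, short lines are means of 3 arrays, the dashed line is the floor of -4.13, and each panel has its own vertical scale. *EPCAM* and *PROM1* lie at the floor in SNU-449 with 1 exception, *IGF2* lies close to it in PLC/PRF/5 except with TGFβ alone, between -1.77 and -1.40, and the 3 *SOX4* points of SNU-449 with TGFβ lie above all others of that gene.

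Untreated, the lines differed in most of these markers. *AFP*, *GPC3*, *EPCAM*, *PROM1*, *IGF2BP1* and *IGF2BP3* were higher in PLC/PRF/5, and *SOX9*, *SOX4* and *IGF2* were higher in SNU-449, so that no line held the whole set. Of the 10 markers tested, 9 passed, against 68.5% of all 17900 genes tested. The 6 that were higher in PLC/PRF/5 stand beside 33.9% of all genes, and the 3 that were higher in SNU-449 beside 34.6%. The median size of the log2 difference, without its sign, was 2.56 over the markers and 0.70 over all genes. Dividing by the array median and not the 75th percentile lowered the difference of all genes by a median of 0.34, left 33.0% of all calls higher in PLC/PRF/5 in place of 49.5%, and ended the calls of *IGF2BP1* and *IGF2BP3*.

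*AFP* was at 3.70, 3.91 and 3.95 in the PLC/PRF/5 controls and at -1.34, -1.34 and -1.21 in the SNU-449 controls. All SNU-449 arrays were still well above background for *AFP*, and no array came near those of the other line. The difference was 35.5-fold (log2 5.15, standard error 0.12, limma, adjusted p = 3.0e-18). *GPC3*, on its brighter probe, was at 3.51, 3.47 and 3.52 in PLC/PRF/5 and at 1.18, 1.95 and 1.43 in SNU-449, which is 3.95-fold higher in PLC/PRF/5 (limma, adjusted p = 5.2e-08). The dimmer probe of *GPC3* was at 1.87, 1.89 and 2.03 in PLC/PRF/5 and at the floor on all 12 SNU-449 arrays, which puts it at least 63.5-fold higher in PLC/PRF/5 (adjusted p = 2.3e-19). The 2 *GPC3* probes thus gave the same direction and very different sizes, although the files assign both to the same transcript. On the brighter probe the SNU-449 arrays of replicate 2 were the highest of each condition, between 1.60 and 1.95. On the dimmer probe the SNU-449 values were set to the floor and had no spread. This lowers the variance used by the test, so the adjusted p of the dimmer probe is a description only.

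The surface markers *EPCAM* and *PROM1* were bright in PLC/PRF/5 and mostly at background in SNU-449. *EPCAM*, an epithelial adhesion molecule, was at 4.18, 4.04 and 4.29 in the PLC/PRF/5 controls and at the floor in the SNU-449 controls, at least 299.8-fold apart (limma, adjusted p = 1.7e-20). Over the 12 SNU-449 arrays, *EPCAM* was well above background on 1, TGFβ + galunisertib replicate 1, at -3.52. *PROM1* was at 1.87, 1.96 and 2.00 in the PLC/PRF/5 controls and at the floor on all SNU-449 arrays. The lines were at least 64.0-fold apart for it (limma, adjusted p = 6.6e-25). The SNU-449 control values of both genes were set to the floor and had no spread. This lowers the variance used by the test, so both adjusted p-values are a description only.

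The transcription factors ran the other way. *SOX9* was at -0.78, -0.44 and -0.14 in the PLC/PRF/5 controls and at 1.34, 1.62 and 1.73 in the SNU-449 controls, so that SNU-449 held 4.05-fold more (limma, adjusted p = 4.3e-10). *SOX4* was at -2.28, -2.34 and -2.44 in PLC/PRF/5 and at 0.49, 0.77 and 1.00 in SNU-449, 8.63-fold higher in SNU-449 (adjusted p = 1.7e-13). Neither gene overlapped between the lines on the control arrays.

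Within the IGF2 group, the growth factor and its mRNA-binding proteins did not share a direction. *IGF2* was at 2.23, 2.46 and 2.44 in the SNU-449 controls and was not well above background on any PLC/PRF/5 control array (-3.58, -3.97 and -4.09), at least 74.8-fold apart (limma, adjusted p = 1.0e-17). *IGF2BP1* was at 4.27, 4.15 and 4.29 in PLC/PRF/5 and at 3.68, 3.84 and 3.75 in SNU-449, and *IGF2BP3* at 5.33, 5.33 and 5.35 against 4.85, 4.86 and 4.75. Both were higher in PLC/PRF/5 by small amounts, 1.39-fold (adjusted p = 1.3e-05) and 1.43-fold (adjusted p = 1.8e-05), which is of the size of the scaling shift given above. The other *IGF2* probe stayed at background on all 24 arrays, so that the *IGF2* values rest on 1 probe.

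The sizes of these differences depend on how signals near background are treated. With normexp background correction, which adds an offset, the log2 difference was 5.77 for *EPCAM*, 3.82 for *PROM1*, -3.66 for *IGF2*, 4.39 for *AFP* and -2.03 for *SOX4*, so that the lower bounds given above hold for the main scaling and not for that setting. With the normalized values of the deposited table it was 10.48 for *EPCAM* and 9.67 for *PROM1*, and with the mean of both probes it was 4.02 for *GPC3*. All of these still passed. In the deposited table *IGF2BP1* did not pass (adjusted p = 0.071).

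*DLK1*, a membrane ligand of hepatoblasts, was dim in both lines, with -2.18, -2.42 and -2.58 in the PLC/PRF/5 controls and -2.60, -2.64 and -2.44 in the SNU-449 controls on the brighter probe. These overlapped, and the log2 difference of 0.17 (standard error 0.27) did not pass (limma, adjusted p = 0.60). The dimmer *DLK1* probe was above background on 10 of 12 SNU-449 arrays and on no PLC/PRF/5 array, never higher than -3.09, which leaves *DLK1* close to background throughout.

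**Figure D2:**
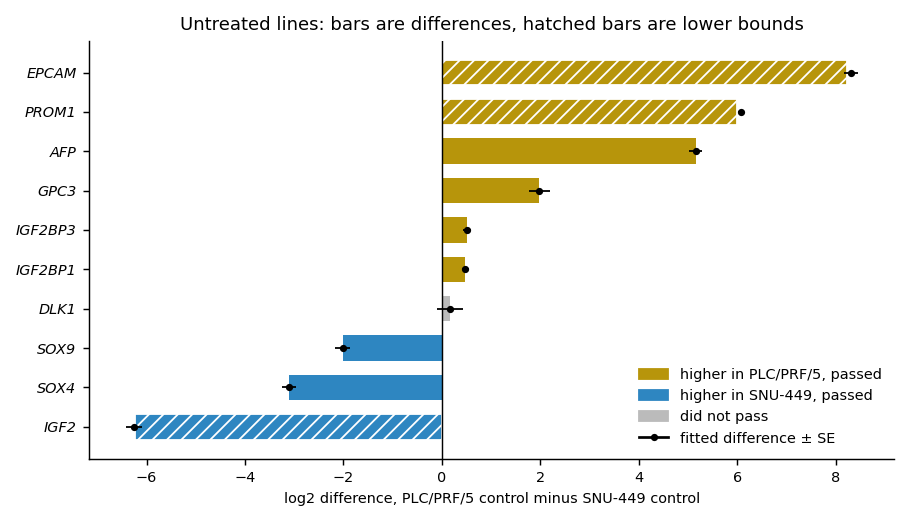
Log2 difference of each marker between the 3 PLC/PRF/5 and the 3 SNU-449 control arrays (horizontal axis; to the right, higher in PLC/PRF/5); bars are the differences, hatched bars are lower bounds, used where 1 line did not rise above background, and points with lines are fitted differences ± standard error (limma). *EPCAM* reaches at least 299.8-fold to the right and *IGF2* at least 74.8-fold to the left, and *DLK1* sits near 0.

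**Figure D3:**
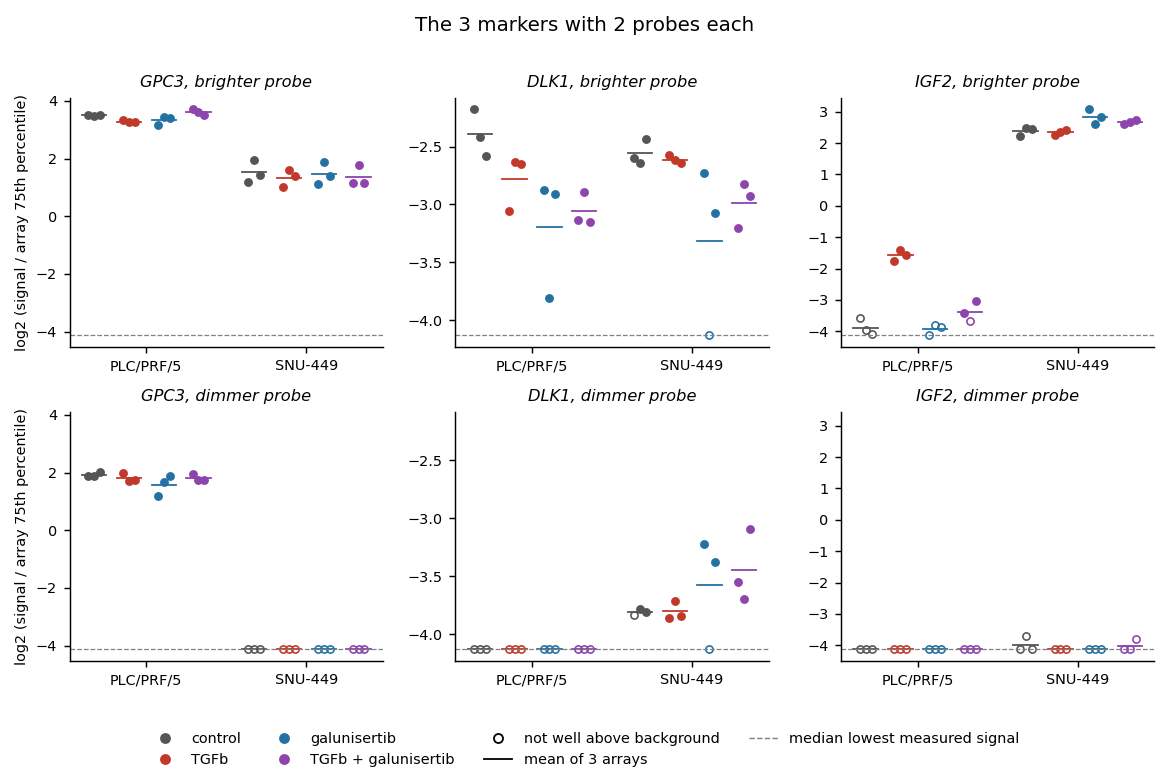
Log2 level of the brighter (upper row) and dimmer (lower row) probe of *GPC3*, *DLK1* and *IGF2* on 24 arrays, with filled points well above background, open points not, short lines for means of 3 arrays and the dashed line at the floor of -4.13; panels of a gene share a vertical scale. The dimmer *GPC3* probe is at the floor in SNU-449 where the brighter one is between 1.02 and 1.95, and the dimmer *IGF2* probe is not well above background anywhere.

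Companion genes of the same programs were split between the lines as well. Their counts, here and in the next paragraph, stand beside 68.5% of all 17900 genes that passed. Of all genes, 33.9% were higher in PLC/PRF/5 and 34.6% in SNU-449, so a split is not particular to these lists. Of 12 other progenitor and stem cell markers, 8 were tested and 7 passed, 4 with more signal in PLC/PRF/5 and 3 with more in SNU-449. The hyaluronan receptor *CD44* was at least 1236-fold higher in SNU-449 and the bile duct keratin *KRT7* was higher there by a log2 of 5.10, written as -5.10 for PLC/PRF/5 minus SNU-449, whereas the adhesion molecule *ICAM1* was higher in PLC/PRF/5 by 3.37. Of 8 other oncofetal genes, 7 were tested and 3 passed, all higher in PLC/PRF/5, and these were the RNA-binding protein gene *LIN28B* (at least 563-fold), the transcription factor gene *SALL4* (at least 203-fold) and *IGF2BP2* (log2 1.89). All 3 glypicans tested besides *GPC3* were higher in SNU-449, with log2 differences of -2.08 for *GPC6*, -0.86 for *GPC1* and -0.53 for *GPC4*. Of the 11 other SOX genes, 5 were tested and all 5 passed, of which 3 favoured PLC/PRF/5 and 2 favoured SNU-449, where *SOX12* had a log2 difference of -2.17.

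Of 10 regulators and neighbours of *AFP*, 8 were tested and 6 passed, 5 of them higher in PLC/PRF/5. The neighbours *AFM* and *GC* were well above background on no array of either line and were not tested. *FOXA1*, a pioneer factor of the liver, was higher in PLC/PRF/5 by 1.65. *ALB*, the gene next to *AFP* on chromosome 4, exceeded its SNU-449 level at least 22.7-fold in PLC/PRF/5. *ZBTB20*, which encodes a repressor of *AFP*, was the exception, at -2.30 for PLC/PRF/5 minus SNU-449. Of the receptors, adaptors and binding proteins of the IGF axis, 8 of 9 were tested and all 8 passed, 3 higher in PLC/PRF/5, led by *IGFBP1* with a log2 difference of 9.98, while 5 had more signal in SNU-449, among them *IRS1*, an adaptor of the receptors, with -1.81. The median log2 difference was 0.58 over the progenitor list, 0.32 over the oncofetal list, -0.38 over the IGF axis and 1.28 over the *AFP* list, beside 0.06 over all genes.

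In PLC/PRF/5, TGFβ raised *IGF2* and *SOX4* and lowered *AFP*. Of the 10 markers, 3 passed, against 13.5% of 16682 genes, and the median log2 difference was -0.01 over the markers and -0.03 over all genes. *IGF2* was at -3.58, -3.97 and -4.09 without TGFβ, on no array well above background, and at -1.77, -1.40 and -1.57 with it, on all 3 arrays well above background. The groups did not overlap, and the rise was at least 4.81-fold (fitted log2 difference 2.30, standard error 0.18, limma, adjusted p = 3.6e-05). Within this line *IGF2* entered the tests only through TGFβ alone, the 1 group with all 3 arrays well above background. Its adjusted p-values here and for the combination against TGFβ are therefore a description and not independent support. With normexp background correction the log2 difference was 0.59 and still passed, so that the call and not the size was kept. The spot of this probe lies in column 161 of the 164 of the array, which was looked at after the values were seen. Over 752 probes with a spot in the last 5 columns, the median log2 difference between the same arrays was -0.01 and the 95th percentile 0.75, and no other probe there rose as much. Only 11 of these probes, *IGF2* included, were not well above background on any control array, so few of them are like it. Over all 26293 probes with a single spot, 12, *IGF2* included, rose at least as much. A part of the spot position in the *IGF2* values was not tested. *SOX4* was at -1.99, -1.85 and -1.74 with TGFβ and lower on all 3 control arrays, a log2 difference of 0.49 (standard error 0.11, adjusted p = 0.017), which lost its call without control replicate 2 or 3, without TGFβ replicate 2 or 3, with scaling to the array median (adjusted p = 0.19), or with normexp background correction, which left 0.15. *AFP* was at 3.47, 3.16 and 3.47 with TGFβ, below the 3 controls, a log2 difference of -0.49 (standard error 0.14, adjusted p = 0.046). It passed narrowly and lost its call in 10 of 15 alternatives, namely without any array of these groups other than control replicate 1, with normexp, with scaling to the array median (adjusted p = 0.41), in the deposited table, by the methods' t-test, and at a fold above 2. *PROM1* had a log2 difference of 0.10, *EPCAM* of 0.19, *SOX9* of -0.01, *GPC3* of -0.22, *DLK1* of -0.39, *IGF2BP1* of -0.01 and *IGF2BP3* of -0.10, and none of these passed.

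Among the companion genes, *SPP1*, the gene of osteopontin, rose in PLC/PRF/5 with TGFβ by a log2 of 2.33 (limma, adjusted p = 6.8e-06), and the stem cell marker genes *LGR5* and *CD24* rose by 0.71 and 0.45, which makes 3 of 8 progenitor genes. In the IGF axis 4 of 8 passed, with *IRS1*, *INSR* and *IGF1R* up by 0.60, 0.50 and 0.30 and *IGFBP3* down, at -1.03. *ALB* fell with *AFP*, at -0.94, while *NR5A2* and *ZBTB20* rose by 0.61 and 0.41, the 3 of 8 that passed among the *AFP* regulators and neighbours. Of the oncofetal genes 1 of 7 passed, *TERT* at -0.65, and of the glypicans 2 of 3, *GPC4* at 0.43 and *GPC6* at 0.38. Of 4 other SOX genes 0 passed by limma, with 0 at an unadjusted p below 0.05.

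Galunisertib alone changed 1 of 10 markers in PLC/PRF/5, against 5.41% of all genes. The median log2 difference was -0.19 over the markers and 0.05 over all genes. *SOX9* was at 0.22, 0.38 and 0.63 with galunisertib, above all 3 controls, a rise of 0.86 on the log2 scale (standard error 0.15, limma, adjusted p = 0.013). The methods' t-test did not call it (adjusted p = 0.17). *AFP* was at 3.39, 3.38 and 3.58, *PROM1* at 1.75, 1.72 and 1.68, and *DLK1* at -2.88, -3.81 and -2.91 on these arrays. All 3 genes had lower means than in the controls, with log2 differences of -0.40, -0.22 and -0.81, and did not pass (limma, adjusted p = 0.12, 0.081 and 0.070). *SOX4* had -0.27, *IGF2BP3* -0.21, *GPC3* -0.17, *EPCAM* -0.09 and *IGF2BP1* -0.09, none of which passed, and *IGF2* was at background in both groups.

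When galunisertib was added to TGFβ in PLC/PRF/5, 6 of 10 markers passed, against 39.1% of all genes. *IGF2* returned towards background, at -3.41, -3.68 and -3.04 with 2 of 3 arrays above it, a log2 difference of -1.80 from TGFβ alone (standard error 0.18, limma, adjusted p = 5.4e-05), or -0.64 with normexp, which also passed. *SOX9* was at 0.60, 0.78 and 0.74 against -0.54, -0.33 and -0.53 with TGFβ, a rise of 1.17 (standard error 0.15, adjusted p = 0.00026), so that its 6 arrays with galunisertib lay above its 6 arrays without. *PROM1* fell from 2.05, 1.97 and 2.10 to 1.52, 1.54 and 1.60, at -0.49 (standard error 0.07, adjusted p = 0.00033), which scaling to the array median reduced to -0.31 and did not call. *AFP* was at 4.10, 3.60 and 4.01, above the 3 TGFβ arrays, a rise of 0.54 (adjusted p = 0.012) that lost its call without TGFβ replicate 2 or TGFβ + galunisertib replicate 1, with quantile normalization and by the methods' t-test. *GPC3* was at 3.71, 3.63 and 3.53 against 3.32, 3.25 and 3.26, a rise of 0.34 (adjusted p = 0.010) on the brighter probe that quantile normalization reduced to 0.15 and did not call, while its dimmer probe had a difference of -0.01 (adjusted p = 0.98). *SOX4* was at -1.99, -2.19 and -2.35, just below the 3 arrays with TGFβ alone, and its difference of -0.32 (adjusted p = 0.048) kept its call in 4 of 15 alternatives. It lost it, among others, with normexp, quantile normalization, scaling to the array median, the deposited table, the methods' t-test and the limit on fold, and without TGFβ replicate 2 or 3 or TGFβ + galunisertib replicate 2 or 3. *EPCAM* had 0.12, *DLK1* -0.28, *IGF2BP1* -0.02 and *IGF2BP3* 0.12, and none passed. The median log2 difference was 0.05 over the markers and 0.06 over all genes.

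Among the companion genes in this comparison, *SPP1* fell, at -1.56, *IGFBP3* rose by 1.29, *IRS1* and *INSR* fell, at -0.67 and -0.51, and *ALB* rose by 0.49. *TERT* and *LIN28B* rose by 0.96 and 0.67. In counts, 3 of 8 progenitor genes, 3 of 7 oncofetal genes, 3 of 8 genes of the IGF axis, 5 of 8 regulators and neighbours of *AFP*, 1 of 3 glypicans and 1 of 4 other SOX genes passed. With galunisertib as the baseline, TGFβ changed 1 of 10 markers, against 8.55% of all genes. This was *SOX4*, which gained 0.44 on the log2 scale (standard error 0.11, limma, adjusted p = 0.042), which lost its call in 10 of 15 alternatives, among them leaving out any of the 3 galunisertib arrays or TGFβ + galunisertib replicate 1 or 2, normexp, scaling to the array median and the methods' t-test. *IGF2* did not rise above background with galunisertib alone and was at least 1.38-fold higher with the combination, which did not pass (adjusted p = 0.081). *AFP* had 0.45, *EPCAM* 0.40, *SOX9* 0.30, *GPC3* 0.29, *IGF2BP3* 0.22, *DLK1* 0.14, *IGF2BP1* 0.06 and *PROM1* -0.17, and none passed. Between the combination and galunisertib alone, the median log2 difference was 0.29 over the markers and 0.02 over all genes.

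In SNU-449, where 8 of the 10 markers were measured well enough to be tested, TGFβ raised *SOX4* and *IGF2BP3*. These 2 of 8 compare with 10.5% of 16100 genes, and the median log2 difference was 0.01 over the markers and 0.02 over all genes. *SOX4* was at 2.03, 2.17 and 2.25 with TGFβ against 0.49, 0.77 and 1.00 in the controls, 2.63-fold higher (log2 1.39, standard error 0.16, limma, adjusted p = 0.00044). Its TGFβ arrays stood apart from the other 9 arrays of the line. *IGF2BP3* was at 5.31, 5.23 and 5.26 with TGFβ, above the other 9 arrays too, and 1.36-fold higher than the controls (log2 0.44, standard error 0.10, adjusted p = 0.015). It lost its call without control replicate 3 or TGFβ replicate 1 or 3, and with quantile normalization or scaling to the array median. *SOX9* was at 1.93, 2.03 and 1.95, above the 3 controls, with a difference of 0.41 that did not pass (adjusted p = 0.11). *IGF2*, at 2.26, 2.36 and 2.43, overlapped its controls, and its difference of -0.03 had a standard error of 0.12. *AFP* had -0.20, *GPC3* -0.18, *DLK1* -0.06 and *IGF2BP1* 0.04, and none passed.

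Of the companion genes in SNU-449, 3 of 6 regulators and neighbours of *AFP* passed with TGFβ, among them *FOXA2*, down at -0.80, and *NR5A2*, up by 0.81. In the IGF axis 3 of 8 passed, with *IGFBP1* at -1.69, *IGFBP3* at 0.60 and *IGF1R* at 0.41. The glypican *GPC4* rose by 1.27, 1 of 3 tested, *TERT* was at -0.94, 1 of 5 oncofetal genes, and *SOX6* and *SOX13* fell, at -1.27 and -0.33, 2 of 4 SOX genes, with *SOX6* above background on 2 of 3 TGFβ arrays. Of 5 progenitor genes 0 passed by limma, with 3 at an unadjusted p below 0.05. Beside *SOX4*, the epithelial cadherin *CDH1* fell from -1.44 to -3.44, with 2 of 3 TGFβ arrays above background, and the neural cadherin *CDH2* rose by 0.93, whose part in the *SOX4* result was not tested.

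Galunisertib alone changed 0 of 8 markers in SNU-449 by limma, against 7.43% of all genes, with 4 of 8 at an unadjusted p below 0.05 and 0 called by the methods' t-test. *IGF2* was closest to the threshold, at 3.08, 2.59 and 2.84 against 2.23, 2.46 and 2.44, a log2 difference of 0.46 (standard error 0.12, adjusted p = 0.051). It passed without galunisertib replicate 2 (0.58, adjusted p = 0.015). *SOX9* was at 1.26, 0.90 and 1.19, below its 3 controls, at -0.45 (adjusted p = 0.083), and *IGF2BP3* at 4.45, 4.57 and 4.60, below its 3 controls, at -0.28 (adjusted p = 0.11). *SOX4* had -0.36, *DLK1* -0.75, *AFP* 0.14, *GPC3* -0.05 and *IGF2BP1* -0.01, and none passed. The median log2 difference was -0.17 over the markers and 0.09 over all genes. Around these markers, *CDH1* and *FOXA2* rose by 1.82 and 1.02, and *IGFBP3* and *KRT7* fell, at -1.21 and -1.51. Of 3 epithelial markers 1 passed, higher with galunisertib, and of 4 mesenchymal markers 1 passed, also higher. In counts, 4 of 8 genes of the IGF axis, 3 of 6 regulators and neighbours of *AFP*, 2 of 5 progenitor genes, 1 of 3 glypicans, 1 of 4 SOX genes and 0 of 5 oncofetal genes passed (0 at an unadjusted p below 0.05).

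Added to TGFβ, galunisertib lowered *SOX4* and *IGF2BP3* in SNU-449, 2 of 8 against 17.1% of all genes. In each line this comparison shares the TGFβ arrays with that of TGFβ and control. *SOX4* was at 0.95, 0.81 and 0.60 with both agents, at -1.36 from TGFβ alone (standard error 0.16, limma, adjusted p = 0.00030), and *IGF2BP3* was at 4.78, 4.76 and 4.47, at -0.59 (standard error 0.10, adjusted p = 0.0020). Both groups of 3 arrays lay fully below those with TGFβ alone. *SOX9* had -0.35, *DLK1* -0.37, *AFP* 0.17, *GPC3* 0.04 and *IGF2BP1* -0.06, and none passed. The median log2 difference was -0.21 over the markers and 0.01 over all genes. *IGF2* had a difference of 0.32 (adjusted p = 0.10), while the 719 probes with a spot in the last 5 columns of the array had a median of -0.31 on the same arrays, in place of 0.01 over all probes with a single spot. *FOXA2* rose by 1.27, *IGFBP1* by 2.19 and *SOX6* by 1.82, and *GPC4* fell, at -1.64. Of the lists, 4 of 8 genes of the IGF axis, 3 of 6 of the *AFP* list, 3 of 5 progenitor genes, 2 of 4 SOX genes, 1 of 3 glypicans and 1 of 5 oncofetal genes passed. With galunisertib as the baseline, TGFβ changed 0 of 8 markers by limma, against 1.90% of all genes, with 2 of 8 at an unadjusted p below 0.05, *SOX9* at 0.51 and *SOX4* at 0.39, and 0 called by the methods' t-test. The others had 0.33 for *DLK1*, 0.13 for *IGF2BP3*, -0.01 for *IGF2BP1*, -0.10 for *GPC3*, -0.17 for *IGF2* and -0.17 for *AFP*.

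**Figure D4:**
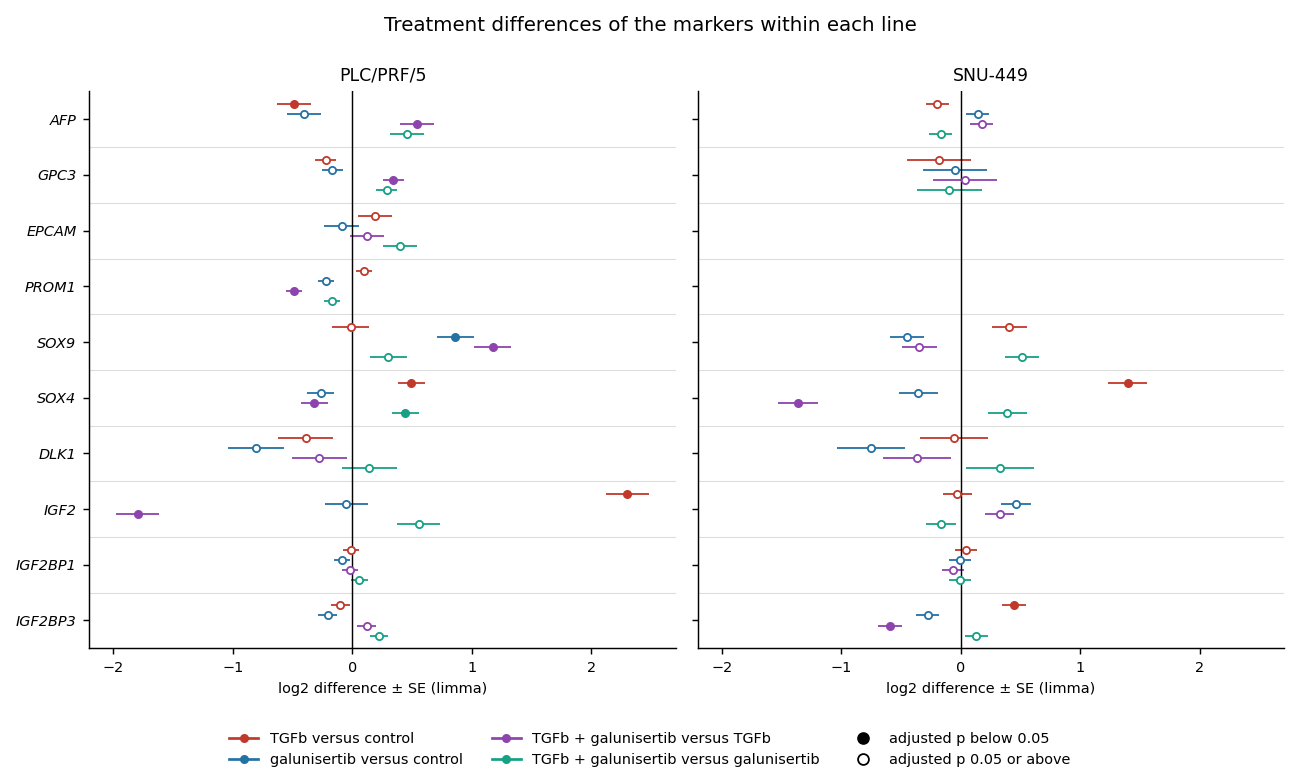
Log2 difference ± standard error (limma, horizontal axis) of each marker in the 4 treatment comparisons within PLC/PRF/5 (left) and SNU-449 (right), with filled points at an adjusted p below 0.05 and no points for *EPCAM* and *PROM1* in SNU-449, which were not tested. *IGF2* stands out at 2.30 and -1.80 in PLC/PRF/5 and *SOX4* at 1.39 and -1.36 in SNU-449, both up with TGFβ and down when galunisertib was added.

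The effects of the lines were then compared by testing their difference over all 24 arrays. For TGFβ, 3 of 10 markers passed, against 8.62% of 17900 genes. *SOX4* responded more in SNU-449, by a log2 of 0.90 (standard error 0.20, limma, adjusted p = 0.0071), which did not pass with scaling to the array median (adjusted p = 0.10). *IGF2BP3* responded more in SNU-449 by 0.55 (standard error 0.12, adjusted p = 0.0050), which did not pass with quantile normalization (0.42, adjusted p = 0.063) or with scaling to the array median (adjusted p = 0.20). In PLC/PRF/5 itself the *IGF2BP3* difference was -0.10. *IGF2* responded more in PLC/PRF/5, at -2.33 for SNU-449 minus PLC/PRF/5 (standard error 0.23, adjusted p = 1.0e-06), and this size depends on the floor, since the PLC/PRF/5 controls were not above background, and was -0.73 with normexp. *SOX9* had a difference of 0.42, *DLK1* of 0.33, *AFP* of 0.29, *IGF2BP1* of 0.05 and *GPC3* of 0.04, and none passed. For galunisertib, 1 of 10 passed, against 5.87% of all genes. This was *SOX9*, at -1.31 for SNU-449 minus PLC/PRF/5 (standard error 0.22, adjusted p = 0.00089), with PLC/PRF/5 at 0.86 and SNU-449 at -0.45. *AFP* had a difference of 0.55 for galunisertib that did not pass (adjusted p = 0.074), nor did *IGF2* with 0.51, *GPC3* with 0.11, *SOX4* with -0.09, *IGF2BP1* with 0.08, *IGF2BP3* with -0.07 and *DLK1* with 0.05. *EPCAM* and *PROM1* count among the 10 but had no measured response in SNU-449 to compare. Their differences, -0.19 and -0.10 for TGFβ and 0.09 and 0.22 for galunisertib, did not pass. These rest on the PLC/PRF/5 arrays alone, since the SNU-449 arrays used were at the floor.

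In the main setting *IGF2BP1* was the steadiest of the 10 markers by the size of its differences, none of which exceeded 0.09 in the 8 treatment comparisons. Its probe was printed as 10 spots whose values were averaged. In the deposited table its TGFβ effect, SNU-449 minus PLC/PRF/5, was 0.49 in place of 0.05, which did not pass (limma, adjusted p = 0.42). *EPCAM* did not pass in any of the 4 PLC/PRF/5 comparisons. *DLK1* did not pass in any of the 8 comparisons within a line, and its probes did not move together. With galunisertib in SNU-449 the brighter probe was at -2.73, -4.13 and -3.07, the lowest of them not above background and all below the 3 controls, while the dimmer probe was at -3.22, -4.13 and -3.38 against -3.84, -3.78 and -3.81, above the controls on 2 of 3 arrays.

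Genes that varied most like the markers were sought over the 12 arrays of a line, which share slides and treatments, and their correlations are a description only. In PLC/PRF/5, *IGF2* was closest to *ZNF608* (Pearson r = 0.977) and *SERPINA3* (0.974), *SOX9* to *FADD* (0.985) and *CREM* (0.982), *AFP* to *A2M* (0.953) and *SCML1* (0.948), *PROM1* to *LOC100506472* (0.972), *GPC3* to *SRP19* (0.952) and *AKR7L* (0.948), and *SOX4* to *lnc-CISD2-1* (0.968) and *NPNT* (0.945). In SNU-449, *SOX4* was closest to *NUMBL* (0.990) and *BHLHE40* (0.988), and *IGF2BP3* to *FBLIM1* (0.987) and *METRNL* (0.983).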

How the data were processed

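RNA from 24 cultures, 3 for each of 8 groups, was profiled on 1-colour Agilent SurePrint G3 arrays. The authors deposited the output of Agilent Feature Extraction 10.7.3.1 for each array, whose processed signal is an intensity after background subtraction, not normalized between arrays. They also deposited a table of log2 values for 30913 probes, which correlated at 0.999 with the scanner files across probes in differences between arrays, which served as an alternative, and which holds 12 of the 13 probes described here. No column was left without a sample. Groups and replicate numbers came from the sample labels.

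Control spots and 111 to 216 outlier spots per array were left out, 0 spots were saturated, and spots of a probe were averaged. Values were expressed over the 75th percentile of the array, set to a floor of 5.70% of it and converted to log2. Probes were tested if at least 1 group had them well above background on each of its arrays, and a gene was represented by the tested probe with the highest mean. Of 58201 probes, 31104 were named through RefSeq (assembly GRCh38.p14, names only), 10719 by LNCipedia and 16378 had no name. Lines were compared with limma 3.58.1 in R 4.3.3 over 24 arrays and treatments over the 12 arrays of a line, with Benjamini-Hochberg adjustment over all genes tested. The steps were tested on simulated data. A lower bound sets the dim group to the weakest signal called well above background on each array or the probe's own signal, whichever is higher. With 3 arrays per group, precision is limited by their number.

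The markers and companion lists were chosen with earlier results of these data known. The markers are given in every comparison in which they were tested, with no treatment value for *EPCAM* and *PROM1* in SNU-449, and so are at most 4 passing genes of each companion list, and the 2 genes with the highest correlation for each marker that passed in a line. A few genes of these lists are not reported here. Alternatives were normexp with an offset of 50 (on median in place of mean signals, which were not used here), quantile normalization, scaling to the array median, the table of the authors, a filter that keeps probes well above background throughout, averaging the probes of a gene, a replicate block, the methods' t-test, limits of a fold above 2 with P below 0.001, and leaving out each array. The methods name a random variance model, and a plain t-test with pooled variance was run in its place. The replicate number is also the slide. Same-numbered arrays were called paired where the lowest of their 3 correlations of deviations from the group means exceeded 0.1. This held for TGFβ against control in PLC/PRF/5 (0.17 to 0.30) and SNU-449 (0.13 to 0.22). In SNU-449 it also held for the combination against TGFβ (0.10 to 0.27). The remaining treatment comparisons did not meet this limit, although their arrays share the slides too.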

Additional observations from a re-analysis of the deposited data

Results flagged for a closer look

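For 4 results the effect of an agent differed between the lines by the test of that difference itself over all 24 arrays. For TGFβ, SNU-449 minus PLC/PRF/5, the log2 difference was -2.33 for *IGF2*, 0.90 for *SOX4* and 0.55 for *IGF2BP3*. With normexp the value of *IGF2* was -0.73. *SOX4* did not pass with scaling to the array median (limma, adjusted p = 0.10), and *IGF2BP3* did not pass with that scaling (adjusted p = 0.20) or with quantile normalization (adjusted p = 0.063). For galunisertib it was -1.31 for *SOX9*. *SOX9* was higher with galunisertib on all 3 arrays of PLC/PRF/5 and lower on all 3 arrays of SNU-449 than on any control array of the same line. Groups of 3 were not searched for arrays that stand apart.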

How the results depend on the processing

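Over the 28 marker differences that passed, 434 alternative values were computed, of which 367 kept direction and call, 67 kept the direction and lost the call, and 0 changed direction. The counts of markers that moved by over 1.5 times come first. With a fold change above 2 and P below 0.001 in place of the adjusted p, the count in PLC/PRF/5 was 1 for TGFβ against control, 0 for galunisertib against control, 2 for the combination against TGFβ and 0 for it against galunisertib, in SNU-449 it was 1 for TGFβ against control and 1 for the combination against TGFβ, and it was 1 for the TGFβ effect between lines. Scaling to the array median, which shifted all genes by a median of -0.34 between the lines, left 1, 0 and 1 for TGFβ against control in PLC/PRF/5, TGFβ added to galunisertib in PLC/PRF/5 and TGFβ against control in SNU-449, and 1 for the TGFβ effect between lines. Quantile normalization left 1 for TGFβ in SNU-449 and gave 2 for the galunisertib effect between lines. Probes well above background on all arrays gave 1 for galunisertib in SNU-449 (*IGF2*), and gave no value for *EPCAM*, *PROM1*, *DLK1* and *IGF2* between the lines. The methods' t-test called 0 for galunisertib against control and 0 for TGFβ added to galunisertib in PLC/PRF/5. With fold above 2 and P below 0.001 it called 7 between the lines, 1 for TGFβ in each line, 1 for the combination against TGFβ in each line and 0 in the other comparisons. Smaller moves gave 6 to 8 in place of 9 between the lines, and 2 in place of 3 for TGFβ in PLC/PRF/5. They gave 4 to 5 in place of 6 for the combination against TGFβ there, and 3 in place of 2 for it in SNU-449 (quantile normalization and the methods' t-test). They also gave 2 in place of 3 for the TGFβ effect between lines (quantile normalization and the filter on background). These are counts, and the markers called need not be among those of the main setting. The methods' t-test called 5 markers for the combination against TGFβ in PLC/PRF/5, although *AFP* and *SOX4* lost their calls there. It called 3 for TGFβ against control in that line, although *AFP* lost its call.

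Leaving out an array gave 1 to 3 markers for TGFβ in PLC/PRF/5, 4 to 6 for the combination against TGFβ there, 0 to 1 for TGFβ added to galunisertib there, 1 to 2 for TGFβ in SNU-449 and 0 to 1 for galunisertib there. With the replicate block, TGFβ added to galunisertib in PLC/PRF/5 gave 0, as *SOX4* had an adjusted p of 0.065, and *SOX4* also lost its call for galunisertib added to TGFβ there (adjusted p = 0.073). Those comparisons did not meet the limit of the check above, with correlations of -0.02 to 0.29 and of 0.03 to 0.33. Their arrays still share the slides, so these lost calls count. The block changed no other call. *SOX4* in PLC/PRF/5 kept its direction under all alternatives, between 0.15 and 0.56 with TGFβ, and the cause of its lost calls was not tested. Signal over background limits *IGF2* in PLC/PRF/5, *EPCAM* and *PROM1* in SNU-449, and *DLK1* in both lines.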
